A study of Mus musculus with 12 samples.

Results

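The genes of the elastic fibre were examined in the inferior vena cava (IVC) of mice with an arteriovenous fistula (AVF) and of sham-operated mice. They were chosen by name, with earlier results of these data known. They were 10 rows of the count table, Eln, Fbn1, Mfap2, Mfap5, Mfap4, Fbln5, Efemp2, Fbln2, Emilin1 and Ltbp4, out of 55414 genes in all. All 10 passed the filter on low values, together with 15912 genes tested. The RNA-seq libraries came from 12 C57BL/6 mice aged 10 wk, 1 library per mouse, collected on postoperative day 7. The 4 groups of 3 mice each were male mice with an AVF, female mice with an AVF, sham-operated male mice and sham-operated female mice. In the AVF groups the aorta and the IVC were joined below the kidneys by a needle puncture, so that arterial blood entered the vein, and the sham groups had the same surgery, clamping included, without the puncture. The whole vein wall was sampled, so fewer cells of a type and less RNA per cell cannot be told apart.

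Elastic fibres give vessel walls their recoil. Their core is elastin, which cells secrete as soluble tropoelastin, and which is laid down on a scaffold of fibrillin microfibrils, guided by fibulins, and then crosslinked by lysyl oxidases. Most elastin of a vessel is made around birth and turns over very slowly, and medial smooth muscle cells and adventitial fibroblasts are its usual sources in the wall.

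The libraries held 15177881 to 22717423 counts. Ribosomal RNA genes took 2.39% to 12.6% of the counts in 11 libraries and 46.0% in replicate 1 of the female AVF group. Markers of smooth muscle summed to 2376 to 4975 normalized CPM (counts of a gene scaled for library size) with an AVF and to 2701 to 4888 after sham surgery, and endothelial markers to 1842 to 2442 and 1583 to 2737, with no marker of either list at 0 in all libraries. Samples #05 (male AVF replicate 2) and #09 (female AVF replicate 2), which the study set apart from their expression as the OUT group, held 2226 and 6389 CPM of hepatocyte markers, against 1.31 to 3.85 in the other 4 AVF libraries. The AVF and sham groups were therefore also compared without those libraries.

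Promoter sequences, from RefSeq on GRCm38.p6, were matched for 7 of the 10 genes, in 13 windows of 300 bases that run from 250 bases before to 50 bases after a transcription start. Eln, Mfap4 and Mfap5 had no entry. The windows are shown because most of these genes rose together, and capitals mark the GC box, GGGCGG on either strand, the binding motif of the Sp family. Those of Fbn1 (chr2:125506389-125506688, minus strand), Mfap2 (the first of 2 windows, chr4:141010431-141010730, plus strand) and Fbln2 (chr6:91212514-91212813, plus strand) belong to genes that were higher in the AVF group. Those of Emilin1 (chr5:30913536-30913835, plus strand) and Ltbp4 (the first of 3 windows, chr7:27337563-27337862, minus strand) belong to the 2 genes that did not pass the test.
Fbn1: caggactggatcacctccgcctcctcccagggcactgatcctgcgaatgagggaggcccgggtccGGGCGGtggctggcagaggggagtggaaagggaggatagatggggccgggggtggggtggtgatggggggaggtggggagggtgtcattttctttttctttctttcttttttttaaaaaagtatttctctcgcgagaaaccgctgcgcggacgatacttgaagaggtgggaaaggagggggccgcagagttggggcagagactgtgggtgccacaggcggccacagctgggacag
Mfap2: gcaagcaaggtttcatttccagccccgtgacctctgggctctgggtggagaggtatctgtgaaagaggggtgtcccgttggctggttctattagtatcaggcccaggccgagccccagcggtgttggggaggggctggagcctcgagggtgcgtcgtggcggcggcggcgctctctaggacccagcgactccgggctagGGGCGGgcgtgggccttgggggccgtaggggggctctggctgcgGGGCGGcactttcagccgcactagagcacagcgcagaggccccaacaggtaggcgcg
Fbln2: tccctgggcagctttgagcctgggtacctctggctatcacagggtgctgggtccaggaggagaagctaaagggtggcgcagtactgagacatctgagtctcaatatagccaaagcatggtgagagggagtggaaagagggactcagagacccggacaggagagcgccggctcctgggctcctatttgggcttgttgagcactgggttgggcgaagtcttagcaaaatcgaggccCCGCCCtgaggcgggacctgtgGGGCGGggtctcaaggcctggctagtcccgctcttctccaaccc
Emilin1: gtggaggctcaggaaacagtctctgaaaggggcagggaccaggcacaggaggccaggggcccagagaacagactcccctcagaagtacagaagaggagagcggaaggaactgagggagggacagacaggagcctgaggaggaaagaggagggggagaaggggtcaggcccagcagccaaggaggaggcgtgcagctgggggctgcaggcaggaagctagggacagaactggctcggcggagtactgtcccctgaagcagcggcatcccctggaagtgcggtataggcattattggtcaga
Ltbp4: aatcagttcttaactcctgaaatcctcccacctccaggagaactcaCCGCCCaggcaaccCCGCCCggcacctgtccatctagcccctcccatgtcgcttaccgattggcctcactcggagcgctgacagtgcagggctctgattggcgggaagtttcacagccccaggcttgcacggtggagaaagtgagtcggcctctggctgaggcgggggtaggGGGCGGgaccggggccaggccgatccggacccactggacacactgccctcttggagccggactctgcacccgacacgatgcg

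A GC box was present in at least 1 window of 6 of the 7 genes and in 10 of the 13 windows, against 35.7% of 32851 windows of the same length, and no copy was found in the Emilin1 window. Ltbp4, which did not pass the test either, held 3, 7 and 9 copies in its 3 windows. The 9 copies were the highest count of the 13 windows. Eln, Mfap4 and Mfap5 had no window, and whether the box bears on the calls was not tested. The GC content was 60.3% in the Fbn1 and the Fbln2 window, 68.0% in the Mfap2 window, 61.7% in the Emilin1 window and 64.3% in the Ltbp4 window shown, above the 52.7% median of all windows. The windows not shown ran from 48.7% to 81.3%. Among them the second window of Fbln5 (48.7%) and of Mfap2 (52.0%) lay under that median and held no GC box. The share of windows with a GC box was not compared at a like GC content. Neither the TATA box (TATAAA, in 13.6% of all windows), the AP-1 motif (TGANTCA, 7.81%), the SMAD-binding element (GTCTAGAC, 0.213%) nor the CArG box of serum response factor (1.63%) was found in any of the 13 windows, on either strand. The CCAAT box (CCAAT, 37.4% of all windows) was in 4 of the 13, and the short SMAD motif (CAGACA, 21.0%) in 3. The windows of a gene with several starts overlap or lie close together, so these counts describe letters and not separate sites.

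To determine whether elastic fibre genes differed between the sham and AVF groups, differentially expressed genes (DEG) were identified with the quasi-likelihood test of edgeR. Of the 10 genes, 8 were significantly higher in the AVF group (adjusted p value under 0.05 over all 15912 genes) and 0 were lower, where 8.63% of all tested genes were higher. With the further threshold of a 2-fold change, 7 of the 10 were DEG with increased expression, against 3.37% of all genes. The median log2 fold change of the 10 genes was 1.21 and that of all tested genes was -0.01. The AVF and sham libraries did not overlap for 8 of the 10 genes, which held with AVF higher for 4.55% of all genes. Without samples #05 and #09, 8 of the 10 genes were again higher, against 5.87% of all genes. The genes were chosen with earlier results known, so these shares are a background and not a test of the list.

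**Figure D1:**
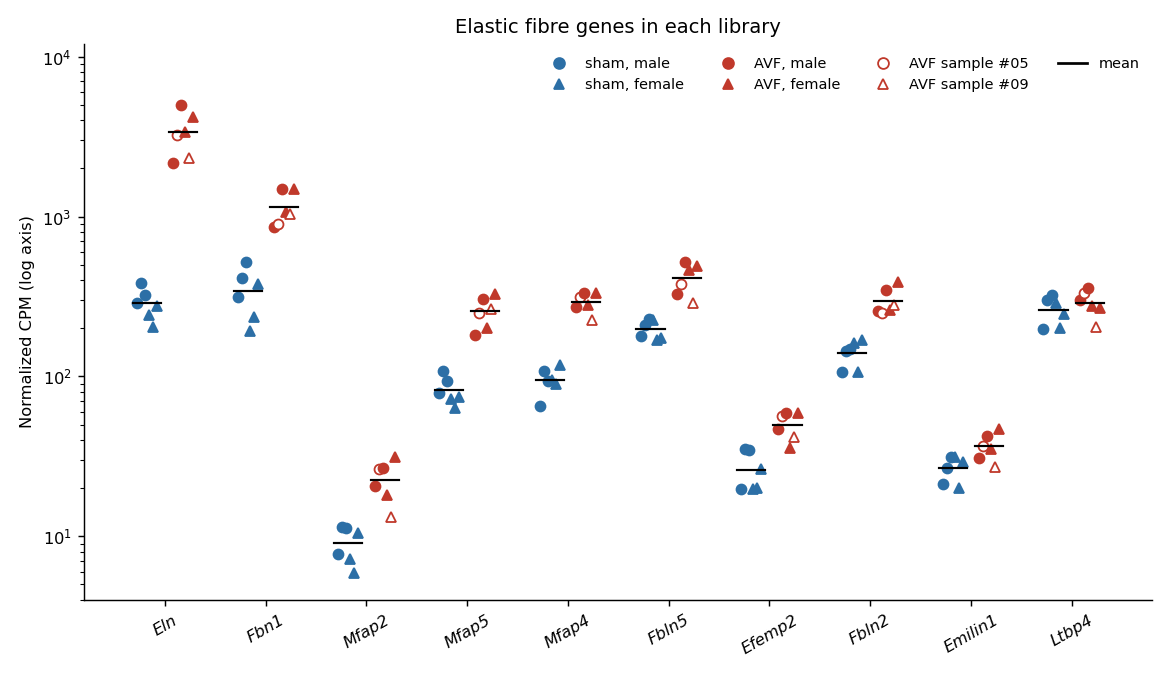
Normalized CPM (log axis) of each elastic fibre gene in the 12 libraries, with circles for male mice, triangles for female mice, open symbols for samples #05 and #09 and a line at the mean of 6. The 6 AVF libraries lie above the 6 sham libraries for 8 genes and overlap with them for Emilin1 and Ltbp4.

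Eln (ENSMUSG00000029675, chr5:134731445-134776322 on GRCm39) encodes tropoelastin. In the sham group its normalized CPM had a lowest value of 202, a median of 283 and a highest value of 382. In the AVF group the lowest was 2162, the median 3313 and the highest 4998. The lowest AVF library, male replicate 1, thus lay far above the highest sham library, and the OUT libraries, 3238 and 2315, lay within the range of the other 4. The fold change was 11.8 (95% interval 8.26 to 17.0), or 3.57 ± 0.24 (SE) on the log2 scale (adjusted p value 1.6e-05 by edgeR, n = 6 in each group), the lowest p value of all genes tested. Without samples #05 and #09 the log2 fold change was 3.69 ± 0.24.

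Fbn1 (ENSMUSG00000027204, chr2:125142514-125349913) encodes fibrillin-1, the rod from which microfibrils are built. Its CPM ran from 194 over a median of 347 to 518 in the sham group and from 866 over 1053 to 1486 in the AVF group. The groups did not overlap, and male sham replicate 3 and the lowest AVF library, male replicate 1, came closest. The fold change was 3.33 (2.33 to 4.77), with an adjusted p value of 0.00099 by edgeR.

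The microfibril-associated proteins bind fibrillin. Mfap5 (ENSMUSG00000030116, chr6:122470878-122508875), which encodes MAGP-2, had a CPM of 63.8 to 108 with a median of 76.5 in the sham group, and of 182 to 329 in the AVF group, where the median was 256. Mfap4 (ENSMUSG00000042436, chr11:61376212-61379727), which encodes a protein that binds tropoelastin and fibrillin, had 65.3 to 118 with a median of 94.0 in the sham group, and 225 to 334 in the AVF group, where the median was 297. Both genes thus moved by nearly the same factor, 3.11-fold (2.42 to 4.00) for Mfap5 and 3.09-fold (2.51 to 3.82) for Mfap4, with adjusted p values of 0.00018 and 6.4e-05 by edgeR. Mfap2 (ENSMUSG00000060572, chr4:140737729-140743295), which encodes MAGP-1, was the least abundant of the 3, with a CPM of 5.94 to 11.5 (median 9.16) in the sham group and of 13.2 to 31.4 (median 23.4) in the AVF group. Sample #09 was its lowest AVF library, and the other 5 were at 18.0 or more. The fold change of Mfap2 was 2.50 (1.79 to 3.50; adjusted p value 0.0031).

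The fibulins bridge tropoelastin, microfibrils and the crosslinking enzymes. Fbln5 (ENSMUSG00000021186, chr12:101712556-101785429), needed for elastic fibre assembly in the mouse, had a CPM of 168 to 229 (median 195) in the sham group and of 286 to 516 (median 422) in the AVF group, a fold change of 2.08 (1.66 to 2.61; adjusted p value 0.0012 by edgeR). Fbln2 (ENSMUSG00000064080, chr6:91189437-91249522), which encodes a fibulin of basement membranes and the inner elastic lamina, had 106 to 170 (median 146) and 251 to 389 (median 271), a fold change of 2.14 (1.70 to 2.69; adjusted p value 0.0010 by edgeR). Efemp2 (ENSMUSG00000024909, chr19:5523975-5532545) encodes fibulin-4, which brings lysyl oxidase to tropoelastin. Its CPM ran from 19.6 to 35.2 (median 23.3) in the sham group and from 35.6 to 59.5 (median 51.9) in the AVF group, so that female AVF replicate 1 and male sham replicate 2 nearly met. It was the 1 of the 8 genes under a 2-fold change, at 1.92-fold (1.45 to 2.56; adjusted p value 0.0080 by edgeR).

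The other 2 genes did not pass the test. Emilin1 (ENSMUSG00000029163, chr5:31070717-31078622) encodes a glycoprotein at the interface of elastin and microfibrils. It had a CPM of 20.1 to 31.5 (median 28.1) in the sham group and of 27.2 to 46.8 (median 35.8) in the AVF group, and 2 AVF libraries lay within the sham range. The estimated fold change was 1.36 (1.08 to 1.72) with an adjusted p value of 0.070 by edgeR, and it was 0.038 without sample #09 and 0.063 without both samples #05 and #09. Ltbp4 (ENSMUSG00000040488, chr7:27004086-27037117) encodes a latent transforming growth factor beta (TGF-beta) binding protein that takes part in elastic fibre assembly with fibulin-5. Its CPM was 198 to 321 (median 267) in the sham group and 205 to 357 (median 289) in the AVF group. The groups overlapped over most of their range, and the fold change of 1.12 had an interval of 0.887 to 1.41 (adjusted p value 0.51).

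**Figure D2:**
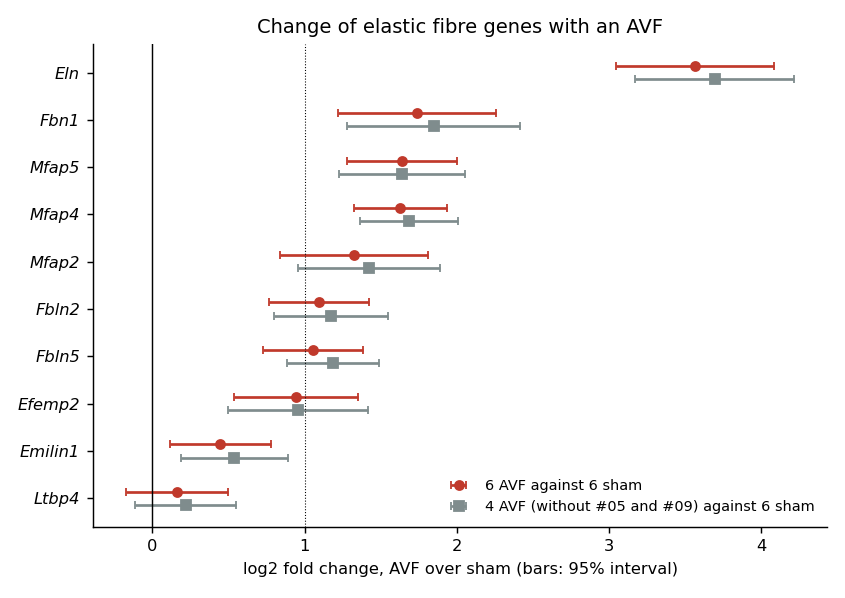
Log2 fold change of each elastic fibre gene, AVF over sham, with 95% intervals (n = 6 sham libraries), for all 6 AVF libraries (circles) and for the 4 without samples #05 and #09 (squares). The dotted line marks a 2-fold change, and Eln, at 3.57 and 3.69, lies apart from the other 9 genes, which range from 0.16 to 1.74 with all libraries.

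Eln therefore moved further than the rest. To compare it with the microfibril scaffold within each library, where depth and scaling cancel, the ratio of the CPM of Eln to that of Fbn1 was taken. It was 0.912, 0.926 and 0.627 in the male sham libraries, 1.24, 0.863 and 0.733 in the female sham libraries, 2.50, 3.60 and 3.36 in the male AVF libraries and 3.17, 2.24 and 2.84 in the female AVF libraries. The groups did not overlap. The geometric mean was 2.91 for AVF and 0.864 for sham libraries, a 3.37-fold difference, or 1.75 ± 0.17 (SE) on the log2 scale (exact two-sided permutation test, p = 0.002165, the smallest value that 6 against 6 libraries can give). This test used the same libraries as the tests of Eln and Fbn1 above, so it is not separate support. The ratio of Eln to each of the other 8 genes, not tested, was higher in every AVF library than in every sham library. These ratios largely restate the larger fold change of Eln given above and are not separate support. The difference of the mean log2 ratios was lowest for Fbn1 (1.75), followed by Mfap4 (1.89) and Mfap5 (1.90), and highest for Emilin1 (3.09) and Ltbp4 (3.37).

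**Figure D3:**
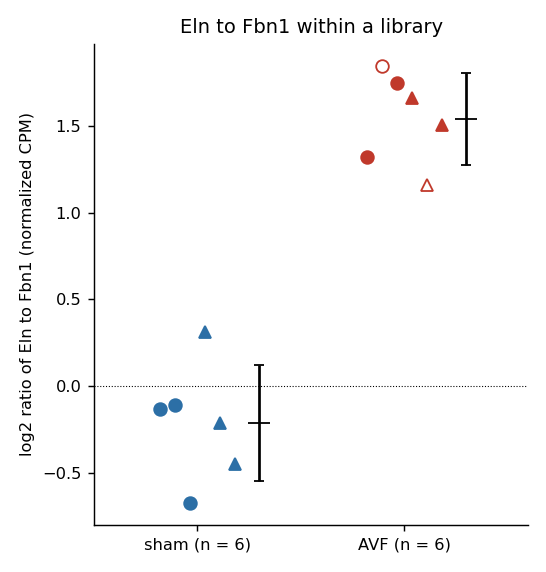
Log2 ratio of the normalized CPM of Eln to that of Fbn1 in each library, with circles for male mice, triangles for female mice, open symbols for samples #05 and #09, and mean ± SD of 6 libraries at the side. The 6 AVF libraries lie between 1.16 and 1.85 and the 6 sham libraries between -0.67 and 0.31.

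Levels of different genes were compared as CPM per kilobase of the union of exons. In the sham group Mfap4 was highest at 40.3 ± 7.59 CPM per kb (SD, n = 6), followed by Eln (34.6 ± 7.64), Ltbp4 (34.4 ± 6.89), Fbn1 (28.2 ± 9.87) and Fbln5 (27.1 ± 3.69). No neighbours in this order separated in all 6 libraries, and Eln was above Ltbp4 in 3 of 6. Below them came Fbln2 (19.9 ± 3.87), Mfap5 (11.9 ± 2.36), Emilin1 (4.80 ± 0.900), Efemp2 (4.77 ± 1.36) and Mfap2 (2.59 ± 0.676), and Emilin1 and Efemp2 again did not separate. In the AVF group Eln came first at 410 ± 132 CPM per kb and was above Mfap4 (124 ± 17.9) in 6 of 6 libraries. Mfap4 was above Fbn1 (94.0 ± 22.9), and Fbn1 above Fbln5 (56.3 ± 12.8), in 6 of 6 libraries each. Fbln2 (42.4 ± 8.10), Ltbp4 (38.4 ± 7.12) and Mfap5 (36.9 ± 8.24) followed without a clear order, and Efemp2 (9.17 ± 1.83), Emilin1 (6.53 ± 1.29) and Mfap2 (6.48 ± 1.90) were lowest. By mean level, Ltbp4 thus stood in the third place in the sham group and in the sixth in the AVF group.

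The sum of the 10 genes rose from 208 ± 34.4 CPM per kb in the sham group to 825 ± 200 in the AVF group. Eln made up 16.6 ± 2.22% of it in the sham group and 48.9 ± 4.43% in the AVF group, with the lowest AVF share (42.4%) above the highest sham share (19.9%). The mean shares of the other 9 genes were all lower in the AVF group, from 13.3% to 11.5% for Fbn1 and from 16.5% to 4.80% for Ltbp4. Shares add up to the whole, so a gene that rose less than the sum loses share. The levels of these 9 genes did not fall, since the mean CPM per kb of each was higher in the AVF group. The share of Eln depends on the length taken, since with the canonical transcript it was 22.5 ± 2.83% in the sham group and 59.1 ± 4.43% in the AVF group, and Eln then came before Mfap4 in the sham group. The order of other genes shifted as well. By that length, sham Mfap2 (8.45 CPM per kb) was above Emilin1 (6.95) in 5 of 6 libraries, and Fbn1 (28.5) stood in the sixth place. In the AVF group Mfap2 (21.1) was above Emilin1 (9.47) in 6 of 6.

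**Figure D4:**
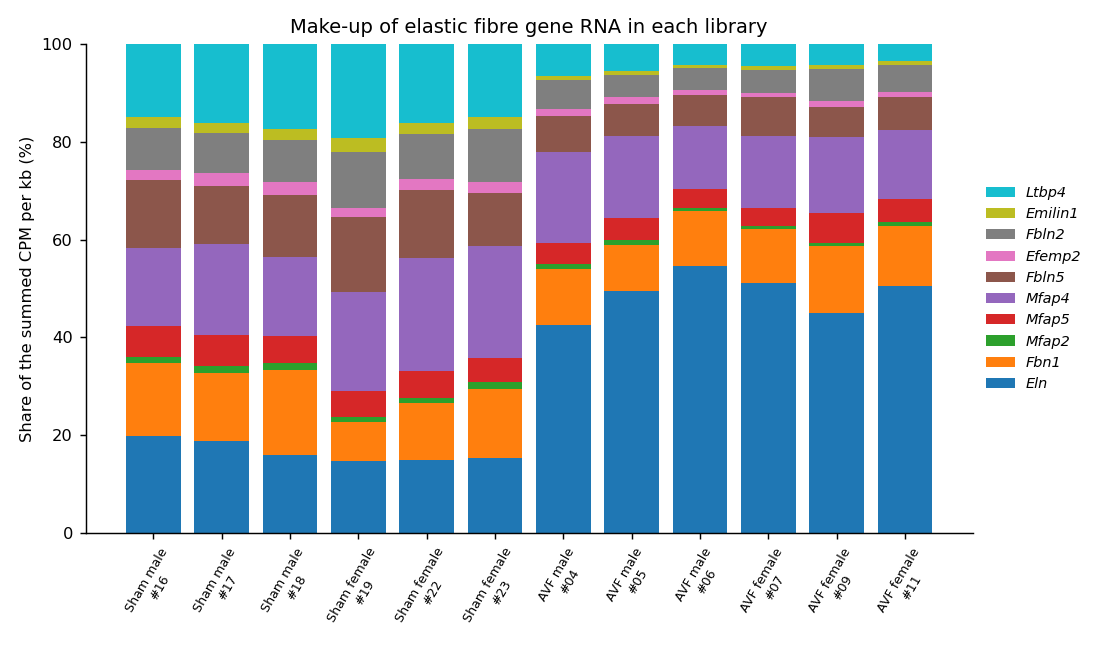
Share of each elastic fibre gene in their summed CPM per kb of exon union, in percent, 1 bar per library with the group and sample number below. Eln takes 14.6% to 19.9% of the sum in the 6 sham libraries and 42.4% to 54.7% in the 6 AVF libraries.

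The AVF libraries varied among themselves. On the log2 scale, the SD over the 6 AVF libraries was 0.47 for Eln, 0.46 for Mfap2 and 0.22 for Mfap4, against 0.32, 0.40 and 0.29 in the sham group. Samples #05 and #09 are given beside the other 4 AVF libraries with no test, since the labels do not hold that split. Their mean lay under the mean of the other 4 for 9 of the 10 genes, by at most 0.43 on the log2 scale for Fbln5, and was higher by 0.01 for Mfap5. For Eln the mean of the other 4 was 3690 ± 1213 CPM, and 5 of the 10 genes had both libraries under that mean of the other 4. Sample #09 was the lowest AVF library for Mfap2, Mfap4, Fbln5, Emilin1 and Ltbp4, and sample #05 for Fbln2. Every one of these values for the 8 genes that rose lay above the sham range.

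To determine whether the sexes differed, female and male libraries were compared within each operation. Eln was 3466 ± 1432 CPM in male and 3305 ± 952 in female AVF mice, and 332 ± 47.6 in male and 240 ± 37.6 in female sham mice (SD, n = 3 each). Fbn1 was 1084 ± 348 and 1196 ± 250 in AVF mice, and 416 ± 101 and 269 ± 97.4 in sham mice. By edgeR, 0 of the 10 genes differed between the sexes in the AVF group, where 0.0314% of all genes did, and 0 in the sham group, where 0.0566% did. The interaction of sex and operation also called 0 of the 10 genes, and 0% of all genes. At an unadjusted p under 0.05 the number of the 10 genes was 0 in each of these comparisons, where 752, 1498 and 813 of all 15912 genes passed, so that few of 10 would pass at that rate. It was also 0 by DESeq2. The intervals were wide, however. The female minus male difference of Eln within the AVF group was -0.07 on the log2 scale (-0.73 to 0.60), and its interaction was 0.40 (-0.54 to 1.34). The interaction was largest for Fbn1, at 0.77 (-0.17 to 1.71), with log2 fold changes of 1.38 in male and 2.15 in female mice.

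Within male mice 3 of the 10 genes were higher in the AVF group, Eln (log2 fold change 3.39), Mfap4 (1.78) and Mfap5 (1.39), where 0.729% of all genes were. Within female mice the count was 8, without Emilin1 and Ltbp4, where 3.57% of all genes were higher. The test of the difference is the interaction above, which called none.

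Genes that act on elastic fibres were then examined from 5 lists, also chosen with earlier results of these data known. Of the crosslinking genes, 4 of 6 were higher in the AVF group and 0 lower, where 8.63% of all genes were higher. Lox, the lysyl oxidase that crosslinks tropoelastin and collagen, had 183 to 295 CPM in the sham group and 691 to 1975 in the AVF group, a log2 fold change of 2.17 ± 0.25 (adjusted p value 0.00031 by edgeR). Loxl1, the homologue that maintains elastic fibres, rose by 1.75 ± 0.16 on the log2 scale, from 36.2 to 56.6 CPM in the sham group to 114 to 203 in the AVF group. Loxl2 (1.54) and Loxl3 (1.04) rose as well. Loxl4 (0.40, adjusted p value 0.43) and Atp7a, the copper pump that loads these enzymes (-0.31, adjusted p value 0.29), did not pass the test. The lowest AVF library was above the highest sham library for each of the 4 genes that rose. This held for 4.55% of all genes, and the groups overlapped for Loxl4 and Atp7a.

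Of 16 other elastic fibre and microfibril genes, 15 were tested, 6 were higher and 0 lower, where 8.63% and 5.13% of all genes were. The number lower was 1 by DESeq2 and without male sham replicate 1. They were Adamtsl2 (log2 fold change 2.75), Fbn2 (2.59), Ltbp2 (1.98), Adamts17 (1.14), Adamts10 (1.04) and Ltbp3 (0.72). Fbn2 encodes fibrillin-2, the fibrillin of developing tissue, and rose 6.02-fold, from 0.663 to 1.86 CPM in the sham group to 4.43 to 10.7 in the AVF group, with samples #05 and #09 the lowest 2 of the 6. Adamtsl2, a microfibril-binding protein, was 1.81 to 4.56 CPM in the sham group and 16.1 to 25.5 in the AVF group. The fibulins of this list did not rise. Fbln1 had a log2 fold change of -0.07, Efemp1 (fibulin-3) of -0.23 and Fbln7 of -0.52, with adjusted p values of 0.83, 0.15 and 0.073. The remaining latent TGF-beta binding protein, Ltbp1, had 0.44 (adjusted p value 0.16), and Emilin2 had 0.38 (0.084). Mfap3 (log2 fold change 0.25), Adamtsl4 (0.30), Tnxb (0.15) and Thsd4 (-0.12) did not pass the test either. Emilin3 was under the filter. The median of the tested members was 0.38.

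Of 10 elastin-degrading proteases, 8 were tested, and 5 were higher and 1 lower (the shares of all genes were 8.63% and 5.13%). Mmp14, the membrane-bound activator of pro-Mmp2, had a log2 fold change of 1.33, Ctss (cathepsin S of macrophages) 1.09, Mmp2 (gelatinase A) 0.77, Ctsk 0.57 and Ctsl 0.40. Mmp9 (gelatinase B) fell by 0.99 on the log2 scale (adjusted p value 0.023 by edgeR), from 10.4 to 15.7 CPM in the sham group to 3.78 to 12.2. Without samples #05 and #09, 3 proteases were higher and 0 lower, since Ctsk (adjusted p value 0.064), Ctsl (0.092) and Mmp9 (0.076) lost the call with fewer libraries, while their log2 fold changes were 0.61, 0.41 and -0.93. The number called higher was also 3 without any 1 of the male AVF replicates, female AVF replicate 3, male sham replicate 1 or any 1 of the female sham replicates, and under both laxer filters on low counts, and it was 6 without female AVF replicate 1. Mmp12, the macrophage elastase, varied more within than between the groups, with 0.594 to 45.8 CPM in the sham group and 7.62 to 42.4 in the AVF group (adjusted p value 0.47). Ctsb (log2 fold change 0.235) did not pass the test. Mmp7 and Elane were under the filter, and Mmp7 was at 0 in all libraries.

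Among 5 protease inhibitors, 1 was higher and 0 lower, where 8.63% and 5.13% of all genes were. Timp1, an inhibitor of matrix metalloproteinases that is induced by injury, rose by 1.45 ± 0.27 on the log2 scale (adjusted p value 0.0049 by edgeR). Timp2 (0.12), Timp3 (0.22), Timp4 (-0.74) and Cst3 (0.33), the cystatin that blocks cathepsins, did not pass the test. Without female AVF replicate 1 the number higher was 2, and without male sham replicate 3 the number lower was 1. Among 5 growth factors acting on elastin synthesis, 3 were higher, against the same 8.63%. Tgfb2 rose 3.70-fold and Tgfb3 2.36-fold, and Igf1, which raises elastin transcription in smooth muscle cells, rose 3.28-fold, from 122 to 287 CPM in the sham group to 529 to 855. Tgfb1 (log2 fold change 0.26, adjusted p value 0.086) and Fgf2, which lowers elastin transcription (0.07, adjusted p value 0.79), did not pass the test.

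**Figure D5:**
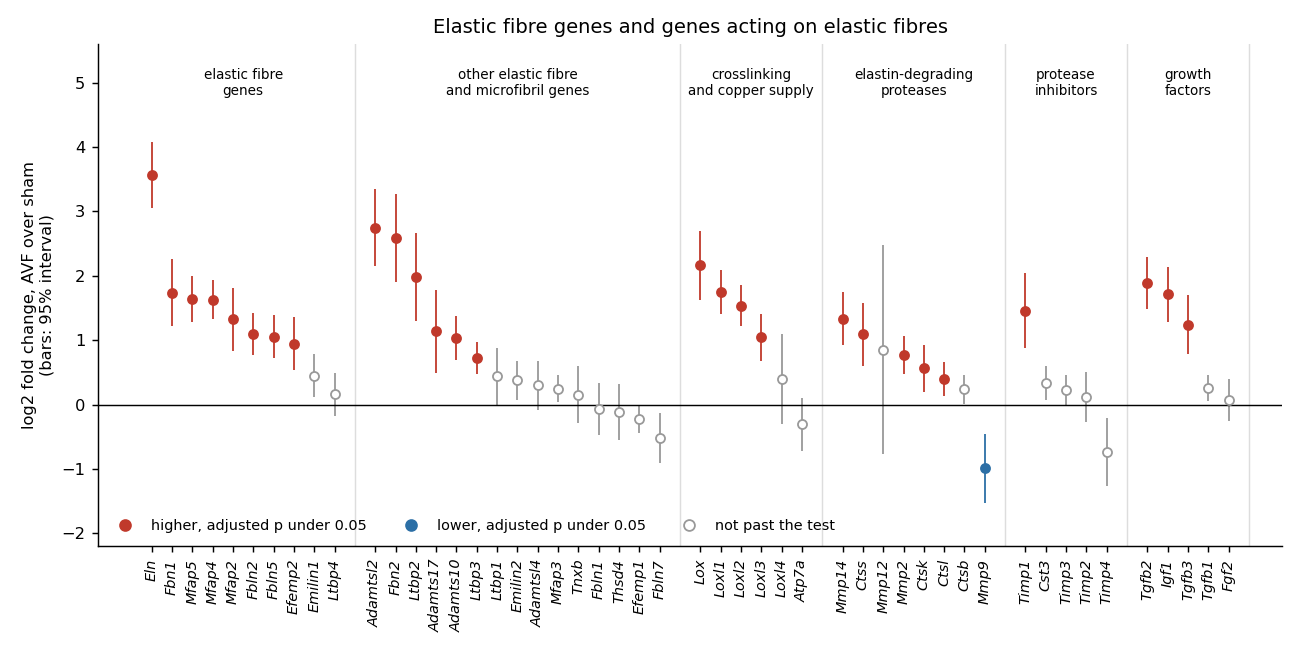
Log2 fold change, AVF over sham, with 95% intervals (n = 6 libraries in each group) of the elastic fibre genes and of the tested genes of 5 related lists, red where significantly higher, blue where lower and open where the test was not passed. Crosslinking genes Lox, Loxl1, Loxl2 and Loxl3 lie between 1.04 and 2.17, and Mmp9 is the only gene on the lower side that passed, at -0.99.

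The genes with the pattern most like Eln were those with the smallest root mean square difference of log2 CPM, after centring each gene, over 12 libraries among 15902 genes. They were Col12a1 (0.35), Tnfrsf11b (0.47), Cthrc1 (0.55), Esm1 (0.61) and Gdf6 (0.67). Col12a1, a fibril-associated collagen, was 278 ± 116 CPM with an AVF and 30.9 ± 7.06 without (SD, n = 6). Of the other elastic fibre genes, Fbn1 was the nearest to Eln (0.92) and Ltbp4 the farthest (1.71). Profiles were centred but not scaled, so this difference takes in the size of the AVF change. The order of the other 9 genes by it was that of their fold changes, so it restates them and does not show a shared regulation. The mean of the other 9 genes was followed most closely by Ckap4 (0.09), Fkbp10, a collagen chaperone (0.11), Sparc (0.12), Loxl3 (0.13) and Gpx7 (0.14).

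Most markers of fibroblasts, macrophages and proliferation were higher in the AVF group too, and those of most other lists were not. All 4 hepatocyte markers were called higher, but 0 of them without samples #05 and #09, where only Alb passed the filter. Of 4 T and B cell markers, 3 were tested and none passed. Of 7 fibroblast markers, 5 were higher in the AVF group, where 8.63% of all genes were. Pdgfra (log2 fold change 0.04, adjusted p value 0.90 by edgeR) and Dcn (0.12, adjusted p value 0.67) did not pass the test. The sum of the 7 was 11160 to 17510 CPM against 5820 to 10920 in the sham group. Col1a1, itself a matrix gene, had the highest mean of the 7, at 8287 CPM with an AVF and 3284 after sham surgery. Of 5 macrophage markers, 4 were higher, with sums of 946 to 1492 and 479 to 814 CPM, and both proliferation markers were higher, with 132 to 259 and 34.8 to 66.2. No marker of these 3 lists was at 0 in all libraries, and their part in the elastic fibre result was not tested. None of 7 smooth muscle and none of 6 endothelial markers passed the test, with median log2 fold changes of 0.06 and 0.05, and the interval of Tagln, for example, ran from -0.06 to 0.76. Of 5 adipocyte markers, 1 was lower, Cox8b of brown fat (log2 fold change -1.99, adjusted p value 0.021 by edgeR), where 5.13% of all genes were. Of 5 cardiac and skeletal muscle markers, 4 were tested and none passed, with a median log2 fold change of -2.76. Their sums were 53.1 to 86.4 CPM with an AVF and 45.4 to 787 after sham surgery, with a sham median of 92.8. Myh6 reached 408.5 CPM in a female sham library. Tested markers had single high sham values too, 246 CPM for Acta1, 215 for Tnnt2 and 110 for Ckm. The AVF and sham medians were 0.98 and 0.53 CPM for Acta1 and 8.23 and 6.42 for Tnnt2. They were 0.15 and 0.19 for Ckm and 56.6 and 75.9 for Actc1. No marker passed the test among 4 of sympathetic neurons (median log2 fold change -1.22; sums of 42.0 to 281 CPM with an AVF and 121 to 540 after sham surgery), 3 of Schwann cells (-0.80; 108 to 272 and 206 to 535) and 4 of mesothelium (1.67; 3.44 to 41.6 and 0.805 to 24.7). Eln per unit of the fibroblast marker sum was 0.0297 to 0.0495 in the sham group and 0.158 to 0.285 in the AVF group, a 6.14-fold difference of the geometric means, and per unit of the smooth muscle marker sum the difference was 11.0-fold.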

How the data were processed

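Poly-A RNA of the IVC was sequenced as stranded paired reads, and a mouse was the replicate. According to the methods and the processing notes, the authors cleaned the reads (PRINSEQ, Trimmomatic 0.39), mapped them with STAR 2.7.7a to GRCm39 using an Ensembl annotation, and counted with RSEM 1.3.3. The deposited values were expected counts per gene, not normalized or filtered. The counts of the 10 elastic fibre genes were whole in every library, at 139 or more, and 5 of the 10 overlap a gene on the other strand.

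Groups came from the sample labels and sample numbers from the study. Names and coordinates came from GENCODE M39 on GRCm39. Expected counts were rounded, genes over 1 CPM in at least 2 libraries were kept, and AVF was compared with sham in edgeR 4.0.16 (TMM, quasi-likelihood test, Benjamini-Hochberg) under R 4.3.3. Contrasts of sex used 1 model of 4 groups. Named genes were all members of the elastic fibre list and of the 5 related lists, some of the markers, and the 5 nearest genes to Eln and to the mean of the other 9. The members and lists were chosen with earlier results of these data known. Intervals and p values cover the spread between mice, and those beside a fold change are not adjusted. Ratios were tested by exact permutation in SciPy 1.17.1. Same-numbered AVF and sham libraries deviated together only weakly (mean correlation 0.10, 1 pair at -0.13), so numbers were not treated as pairs. DESeq2 1.42.0, limma 3.58.1, other filters and scalings and leaving out libraries were alternatives. The edgeR quasi-likelihood steps were tried on simulated counts, and the ratios, shares and promoter counts were not.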

Additional observations from a re-analysis of the deposited data

How the results depend on the processing

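All 8 genes that rose kept their direction and their call under the other filters, scalings and tools, with each library left out in turn and with the replicate number as a block, and lost it only for Mfap2, Fbln5 and Efemp2 under a test against a 1.5-fold threshold, chosen after seeing the data, which called 5 of the 10 genes (of all genes 167 higher and 12 lower, 165 and 10 of them with a 2-fold change). Eln ranged from 3.42 to 3.69 on the log2 scale over 25 settings and Ltbp4 from 0.09 to 0.24. Emilin1 passed the test under DESeq2 (adjusted p value 0.034) and without female AVF replicate 2 (0.038). It also passed with the replicate number as a block (0.016, log2 fold change 0.45 against 0.45). Under the other 22 settings it did not pass, the test against a 1.5-fold threshold among them. The cause of these differences was not tested. The block changed no other call of the 10 genes, and 2 of 6 AVF libraries correlated best with their own number.

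With a 2-fold change, 536 genes of all were higher (351 to 608 with 1 library left out) and 223 lower (119 to 415). The lower count was 361 by the exact test of edgeR, 408 by DESeq2 and 111 without samples #05 and #09. Between female and male AVF mice, 1 gene was higher and 4 lower (1 to 3 and 4 to 6 with 1 library left out), against 17 and 8 by the exact test and 19 and 30 by DESeq2. In the sham group the counts were 4 and 5 (3 to 12 and 5 to 19), against 135 and 101 by the exact test and 84 and 90 by DESeq2. The interaction was called for 0 genes, with 813 at an unadjusted p under 0.05, and for 3 and 1 by DESeq2. With 3 mice of each sex, differences between the sexes of the size of their intervals were not detectable.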
